A study of Arabidopsis thaliana with 3 samples.

Results

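This account covers the cell wall genes among the transcripts that differed between *dss1(I)* mutant and wild-type (WT) seedlings of *Arabidopsis thaliana* under hydrogen peroxide. The genes were taken from the deposited comparison by their descriptions: a gene was included if no transcription factor family was given for it and its description held 1 of 12 words or phrases (extensin, expansin, pectin, pectate, polygalacturonase, cellulose synthase, xyloglucan, arabinogalactan, callose, proline-rich, glycine-rich cell wall or endoglucanase) and not the word kinase. This gave 63 of the 2762 genes of the table. The rule used no measured value, but it was set with earlier results of these data known. Every gene of the table is there because the authors called it different between the genotypes. The content of what follows is therefore the direction and the size of each difference, not whether there was one. The words also caught *CHUP1*, a protein that positions chloroplasts along actin filaments, which is described as hydroxyproline-rich, and *CSLC6*, which makes the glucan backbone of xyloglucan and does not modify the finished wall.

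Both genotypes were of the Columbia-0 background and received the same treatment. Seedlings grew for 14 days and then spent 3 days on agar with 10 mM H2O2, and no untreated seedlings were in the comparison. The mutant is 1 homozygous line, *dss1(I)del25*, made with CRISPR/Cas9 and labelled a knockdown, with an altered *AtDSS1(I)*, 1 of the 2 Arabidopsis genes for the proteasome-associated protein DSS1. RNA of whole seedlings from independent experiments was combined into 1 library per genotype, so no replicate error and no test across genotypes can be had. A library of the line *dss1(V)* was left out as not analysed here.

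The plant cell wall is a network of cellulose microfibrils tied by xyloglucan and other hemicelluloses and set in pectin, with structural glycoproteins running through it. Extensins are rod-like glycoproteins in which a serine followed by a run of prolines is repeated many times. The prolines are hydroxylated and carry short arabinose chains, and tyrosines between the repeats can be joined by peroxidases that use H2O2, which locks the extensins into a network. Leucine-rich repeat extensins (LRX) carry such an extensin tail behind a leucine-rich repeat domain, while expansins, xyloglucan endotransglucosylase/hydrolases (XTH), pectin esterases and endoglucanases loosen or remodel the polysaccharides.

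The repeat that defines the extensins is visible in their coding sequence. The stretches printed here are the 90 bases that begin at the first codon of serine followed by 4 prolines. They are given for a pair of neighbouring genes on chromosome 3 (AT3G54580 and *EXT2*) and for the extensin with the most reads (*ATEXT4*). The others are of the extensin with the largest log2 ratio at a pseudocount of 1 (AT5G35190) and of *LRX2*. They are RefSeq sequences of build TAIR10.1, written 5′ to 3′ on the coding strand, and each lies in 1 exon. Capitals mark codons of a serine followed by at least 3 prolines. The positions are chr3:20203486-20203575 (minus strand) for AT3G54580, chr3:20206448-20206537 (plus) for *EXT2*, chr1:28896680-28896769 (minus) for *ATEXT4*, chr5:13434421-13434510 (plus) for AT5G35190 and chr1:23114082-23114171 (plus) for *LRX2*.
AT3G54580: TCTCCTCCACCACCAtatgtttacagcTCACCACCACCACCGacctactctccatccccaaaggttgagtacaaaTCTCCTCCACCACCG
EXT2: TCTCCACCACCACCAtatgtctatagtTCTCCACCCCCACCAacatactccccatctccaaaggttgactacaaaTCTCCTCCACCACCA
ATEXT4: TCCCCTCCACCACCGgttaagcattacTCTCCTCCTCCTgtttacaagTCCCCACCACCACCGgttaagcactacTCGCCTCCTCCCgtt
AT5G35190: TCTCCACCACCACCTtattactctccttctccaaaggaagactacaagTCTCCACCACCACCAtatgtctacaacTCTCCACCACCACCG
LRX2: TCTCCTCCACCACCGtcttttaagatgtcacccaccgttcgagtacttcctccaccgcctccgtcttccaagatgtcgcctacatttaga

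In AT3G54580 and *EXT2* the capital runs stand at the same places and the codons between them spell nearly the same letters. *ATEXT4* has shorter spacers between its runs, and *LRX2* has a single run in this stretch. Over the whole coding sequence, the serine with 4 prolines occurred 70 times in AT3G28550, 68 times in AT3G54580, 64 times in AT1G23720, 51 times in *EXT2* and 9 times in *ATEXT4*. It was present in 13 of the 14 genes described as extensins and in all 6 LRX genes, where it occurred from 4 times (*LRX4*) to 25 times (*PEX3*). Among the other 43 members it was found in 3, with 2 in *PMEI10* and 1 each in *PRP1* and *PRP3*. Proline made up 22.5% to 42.5% of the residues in those 13 extensins. The remaining one, AT5G22430, is described as an Ole e 1 and extensin family protein, has no such repeat and 6.40% proline, and was also the only one of the 14 with more reads in WT.

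The repeats can matter for counting. The longest stretch shared letter for letter by the spliced transcripts of 2 extensin or LRX genes was 101 bases, between AT5G06630 and AT2G24980. Next were 83 bases between AT3G54580 and *EXT2* and 77 bases between AT3G28550 and AT3G54580. Windows of 150 bases that occur more than once in the genome made up 30.4% of AT4G08410, 11.4% of AT3G54580, 6.02% of AT5G06630, 4.17% of AT2G24980 and 3.04% of AT3G28550, and were absent from the other 9 extensins and the 6 LRX genes. Since no 2 of the transcripts compared share 150 bases, such a window recurs within its own gene or in a sequence outside these transcripts. The search did not tell these apart. Whether reads of these 5 genes belong to a copy elsewhere was not tested.

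The mutated gene was lower in the library labelled *dss1(I)*: *AtDSS1(I)* had 233 reads there and 807 in WT, a log2 ratio between −2.23 and −1.80 by the counting interval, and its paralog *AtDSS1(V)* had 21 and 73 reads. The libraries held 11033843 reads (*dss1(I)*) and 9394592 reads (WT) by the FPKM scale, of which the genes of the table took 9.49% and 10.7%. Ratios below are log2 of *dss1(I)* over WT on the authors' scaled counts with a pseudocount of 1, in which 1 read was worth 0.927 in *dss1(I)* and 1.08 in WT. Each interval is an exact Clopper-Pearson 95% interval of the read counts. It covers counting error only, since reads made by PCR without molecular identifiers are not independent molecules and the spread between plants was not measured. Because whole seedlings were used, fewer cells of a type and less RNA per cell cannot be told apart.

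Of the 63 cell wall genes, 45 had more in *dss1(I)* and 18 had more in WT. The filter on low counts, which asks that 1 library or both reach a scaled count of 10, was passed by 58 of them. Of these 58, 42 were at least 2-fold higher in *dss1(I)* (72.4%) and 16 at least 2-fold lower (27.6%), with a median log2 ratio of 1.28. Among all 2620 genes of the table that passed the same filter, 48.1% were higher, 51.0% were lower and the median was −1.02. The wall genes thus lay mostly on the higher side of a table that was split about evenly. Scaling the counts by the median ratio over the table, in place of the authors' scaling, adds 1.02 to every log2 ratio and gives 43 higher and 3 lower members (93.5% higher), against 81.9% higher among all genes. With the authors' scaling the median member was 2.29 above the median gene of the table on the log2 scale, and adding a constant leaves this difference as it is apart from the pseudocount. Only 22 of the 2620 genes were under 2-fold, so a median falls on 1 side or the other of this gap. The difference therefore mostly restates the split and is no measure of size. The members with ratios nearest to the 2-fold line were *CHUP1*, *CESA1* and *AGP18*, at 1.00 each.

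**Figure D1:**
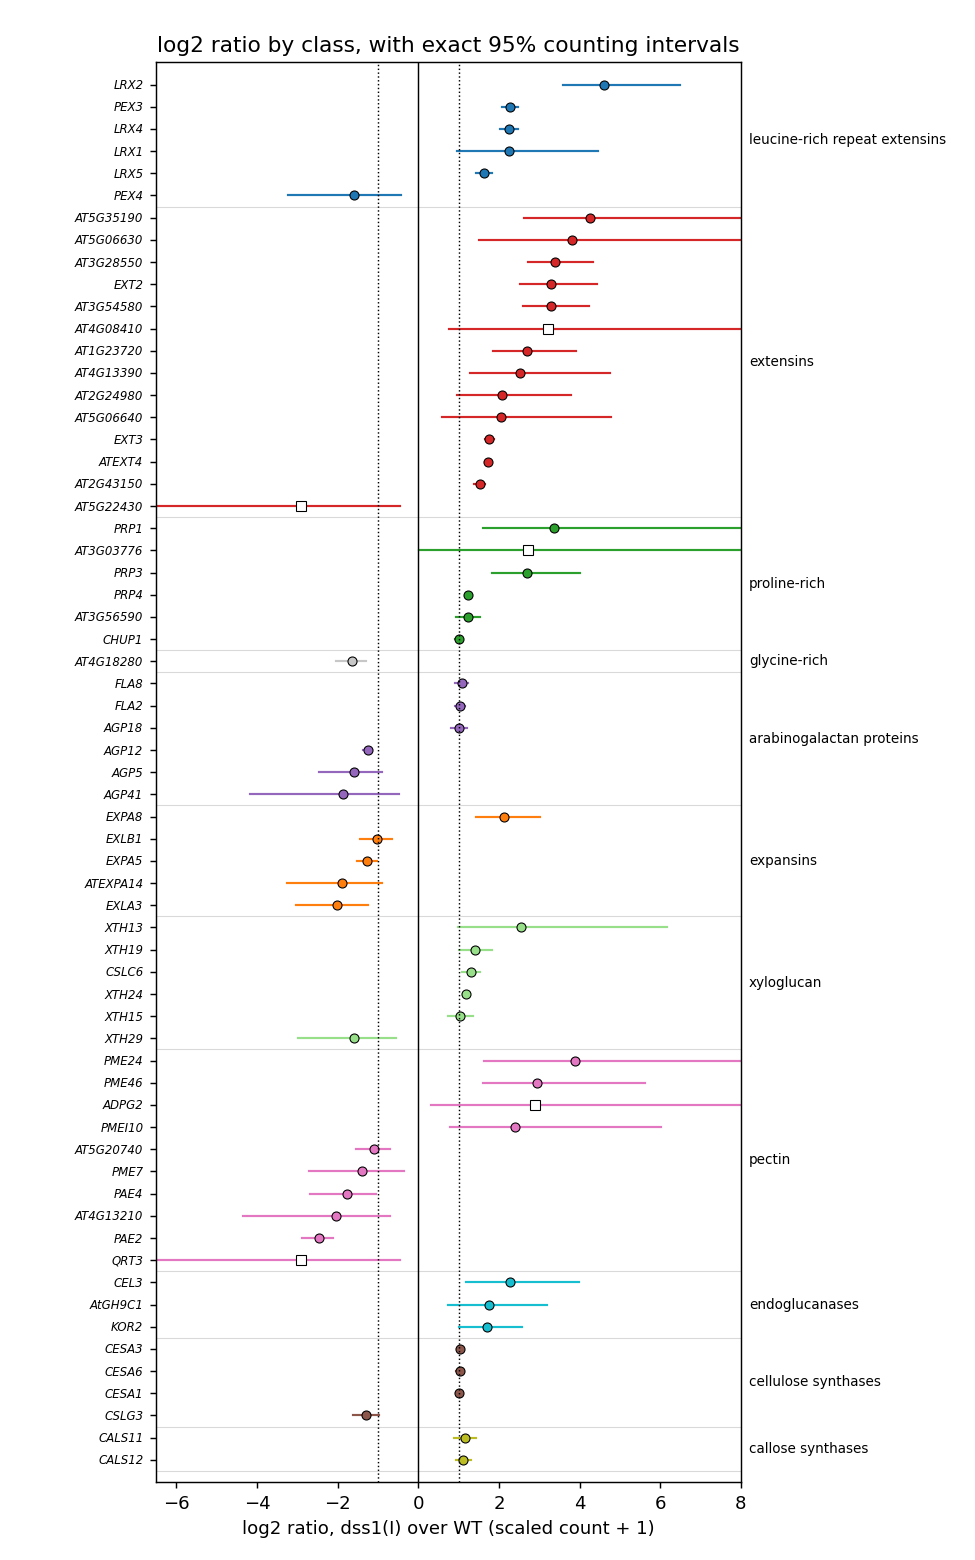
Log2 ratio of *dss1(I)* over WT for each of the 63 cell wall genes, by class, with lines for the exact 95% counting interval, which end at the axis limits where longer. Open symbols are the 5 members under a scaled count of 10 in both libraries. The extensins and LRX genes lie to the right apart from *PEX4* and AT5G22430, and the pectin, arabinogalactan and expansin classes lie on both sides of 0.

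Of the 14 extensins 12 passed the filter, all 12 were higher in *dss1(I)*, and their median log2 ratio was 2.61, or 2.30 with the gene that had no WT read set to its bound. The steepest with the pseudocount of 1 was AT5G35190, with 42 reads in *dss1(I)* against 1 in WT, a ratio of 4.26 (2.62 to 10.5). AT5G06630 had 14 reads in *dss1(I)* against none in WT, which is at least 4.01-fold higher when the WT library is set to 3 reads, the upper limit that a count of 0 allows. Both rest on small counts, and the table could list so small a count only with a large ratio, which holds for all extensins with few reads.

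A set of extensins with long repeats followed, each about 5- to 11-fold higher. AT3G28550 had 193 reads in *dss1(I)* against 15 in WT (log2 ratio 3.39, 2.71 to 4.33). *EXT2* had 135 and 11 reads (3.29, 2.51 to 4.44). Its neighbour AT3G54580, which lies on the opposite strand with 2208 bases between them, had 180 and 15 reads (3.29, 2.61 to 4.23). The 3 ratios lie within one another's counting intervals, and these are 3 of the 4 extensins with more than 50 of the repeats. AT1G23720, the fourth, had 81 and 10 reads (2.69, 1.85 to 3.91). AT4G13390 had 32 and 4 reads (2.53), AT2G24980 had 33 and 6 (2.08) and AT5G06640 had 18 and 3 (2.06). AT5G06640 lies 1742 bases from AT5G06630, and both were higher in *dss1(I)*. AT4G08410 had 9 reads in *dss1(I)* against none in WT, at least 2.58-fold higher, but stayed under the filter and has the largest share of repeated windows. AT5G22430 had none in *dss1(I)* against 6 in WT, at least 2.33-fold higher in WT.

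The abundant extensins were higher as well, with narrow intervals. *ATEXT4*, at chr1:28895301-28897120 on the minus strand, had 10828 reads in *dss1(I)* against 2818 in WT, a log2 ratio of 1.72 (1.66 to 1.78). Per length, its level was 731 FPKM in *dss1(I)* against 223 in WT. *EXT3*, the extensin needed for the cell plate of dividing embryo cells, had 2874 and 728 reads, a ratio of 1.76 (1.65 to 1.88). AT2G43150 had 1868 and 560 reads, a ratio of 1.52 (1.38 to 1.66). These 3 were thus each about 3-fold higher.

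The LRX genes fell into the same range. *PEX3*, named for pollen although it is well covered in these seedlings, had 1293 reads in *dss1(I)* against 230 in WT (log2 ratio 2.27, 2.07 to 2.48). *LRX4* had 1164 and 211 reads (2.24, 2.03 to 2.46), and *LRX5* had 918 and 256 (1.62, 1.42 to 1.83). *LRX4* and *LRX5* belong to the group that binds RALF peptides in vegetative tissue. *LRX2*, which with *LRX1* shapes the wall of growing root hairs, had 167 reads in *dss1(I)* against 5 in WT (4.61, 3.59 to 6.49). This ratio was the largest of all members with the pseudocount of 1. Without a pseudocount AT5G35190 was 35.9-fold higher and *LRX2* 28.7-fold, so the rank depends on the pseudocount. *LRX1* had 26 and 4 reads (2.24, 0.96 to 4.46). *PEX4*, a second gene named for pollen, went the other way with 7 and 20 reads, a ratio of −1.59 (−3.22 to −0.43).

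**Figure D2:**
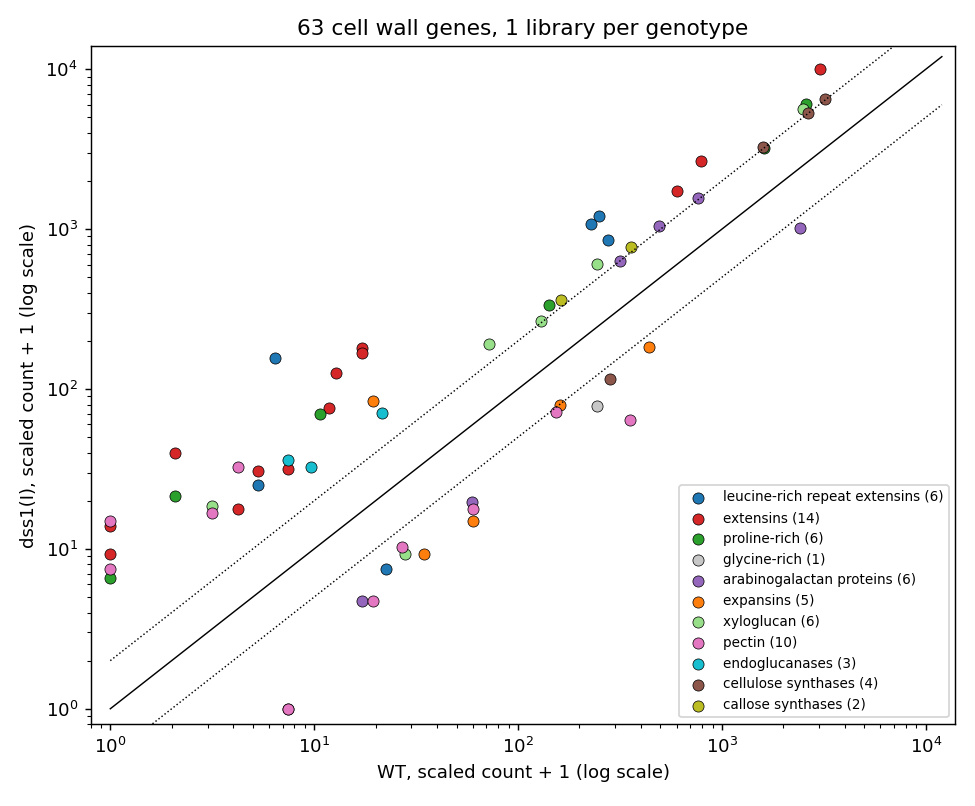
Scaled counts in the WT and the *dss1(I)* library on a log scale, extensin and LRX genes included. In 18 of the 20 extensin and LRX genes the *dss1(I)* value is the higher one. The exceptions are *PEX4* and AT5G22430.

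By their WT reads the 20 extensin and LRX genes formed 2 sets with nothing between them. The 6 abundant genes had 211 to 2818 reads in WT and 918 to 10828 in *dss1(I)*, and their log2 ratios spanned 1.52 to 2.27. The other 14 had at most 20 reads in WT. Genes with so few WT reads could be listed, and could pass the filter as higher, only with a large ratio, so their ratios are not compared in size with those of the 6. Summed over the 20 genes, scaled counts were 18439 in *dss1(I)* against 5287 in WT, a 3.49-fold difference. *ATEXT4* alone gave 54.5% of the extensin reads in *dss1(I)* and 57.5% in WT, and without it the sums were 8397 and 2248, a 3.73-fold difference.

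Beside the extensins, the wall-modifying enzymes (the xyloglucan, pectin and endoglucanase entries without the inhibitors) were more mixed. Of 17 listed enzymes 15 passed, 10 were higher and 5 lower, with a median log2 ratio of 1.31. Of the 18 extensins and LRX genes that passed, 17 were higher and 1 lower (94.4% against 66.7%), with a median of 2.26, or 2.24 with the gene at 0 set to its bound. The medians thus differed by 0.94 on the log2 scale. Of the 17 higher genes, 11 had at most 15 reads in WT and could be listed as higher only with a large ratio. A gene under a scaled count of 10 in WT could pass the filter only as higher. The same holds for enzymes with few WT reads, so the shares, the medians and their difference carry this selection. This difference has no interval, since genes are not replicates. Leaving the LRX genes out made it 1.30, a pseudocount of 5 made it 0.57, and it kept its sign under every alternative tried. The other scalings add about the same constant to both medians, so they could not change it by much. Summed scaled counts of the enzymes were 7016 in *dss1(I)* against 3472 in WT, a 2.02-fold difference that is mostly *XTH24*.

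Among the xyloglucan genes 5 of 6 were higher, with a median of 1.24. *XTH24* had 6093 reads in *dss1(I)* against 2318 in WT (log2 ratio 1.18, 1.11 to 1.25). Its neighbour *XTH19*, 8116 bases away on chromosome 4, had 205 and 66 reads (1.40), and *CSLC6* had 651 and 225 (1.31). *XTH13* had the largest ratio, 2.56 (0.98 to 6.18), on 19 and 2 reads. *XTH15* was also higher, with 285 and 119 reads (1.04). *XTH29* was the exception, with 9 reads in *dss1(I)* against 25 in WT (−1.58). The XTH genes of this table that carried most of the reads were therefore on the higher side.

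All 3 endoglucanases were higher, with a median of 1.76. *KOR2*, a membrane-bound endoglucanase of the KORRIGAN family, had 75 reads in *dss1(I)* against 19 in WT (1.71). *CEL3* had 38 and 6 reads (2.28), and *AtGH9C1* had 34 and 8 (1.76).

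The pectin genes went both ways: of 10 listed, 8 passed, 3 higher and 5 lower, with a median of −1.25. On the higher side were pectin methylesterase genes, whose enzymes strip methyl groups from pectin. *PME46* had 34 reads in *dss1(I)* against 3 in WT (2.94), and *PME24* had 15 and none, at least 4.30-fold higher. The inhibitor gene *PMEI10* was also higher, with 17 and 2 reads (2.41), while AT5G20740, another inhibitor, was lower with 76 and 142 (−1.11). Lowest of the 58 members that passed the filter was *PAE2*, a pectin acetylesterase, with 68 reads in *dss1(I)* against 327 in WT (−2.46, −2.88 to −2.10). Its relative *PAE4* had 18 and 55 reads (−1.77). The pectate lyase AT4G13210 had 4 and 17 (−2.04) and *PME7* had 10 and 24 (−1.39). Both acetylesterases in the table were thus lower, whereas methylesterases were found on either side. *PAE2* and *PAE4* are 1670 and 1827 bases long, and outside the wall list 37.0% of the genes from 1500 to 2000 bases were higher. *PME46* and *PME24* were under a scaled count of 10 in WT and could pass the filter only as higher. The contrast between the enzyme types carries these limits. The polygalacturonases *ADPG2* (7 reads in *dss1(I)*, none in WT) and *QRT3* (none and 6) stayed under the filter, with bounds of 2.00-fold and 2.33-fold in opposite directions.

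Expansins, which loosen the wall without cutting it, were mostly lower. Of 5 listed 1 was higher and 4 were lower, with a median of −1.27. They are 1117 to 1706 bases long, and among genes of the table outside the wall list 13.4% of those from 1000 to 1500 bases and 37.0% of those from 1500 to 2000 bases were higher, so the count lies near the share for such lengths. *EXPA5* had 196 reads in *dss1(I)* against 407 in WT (−1.27), and *EXLB1* had 84 and 148 (−1.03). *EXLA3* had 15 and 55 reads (−2.02), and *ATEXPA14* had 9 and 31 (−1.88). *EXPA8* was the one on the higher side, with 90 and 17 reads (2.13, 1.43 to 3.03). With the median ratio scaling, which adds 1.02, the median of the class is −0.25 and 1 expansin remains at least 2-fold lower.

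Arabinogalactan proteins, glycoproteins of the cell surface, were split 3 to 3, with a median of −0.13 whose sign turned under 2 other scalings. *FLA2* and *FLA8*, which carry fasciclin domains, had 1690 and 711 reads (1.03) and 1121 and 456 reads (1.08), and *AGP18* had 680 and 291 (1.00). *AGP12*, a short arabinogalactan peptide, was lower with 1092 and 2243 reads (−1.26). *AGP5* had 20 and 54 reads (−1.60), and *AGP41* had 4 and 15 (−1.87). The 3 lower ones are also the shortest, at 733 to 810 bases, and of the genes under 1000 bases outside the wall list 10.3% were higher.

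Proline-rich proteins were higher in all 5 members that passed, with a median of 1.24. *PRP1* and *PRP3*, root proline-rich proteins of which *PRP3* is known from root hairs, had 22 and 1 reads (3.36, 1.61 to 9.61) and 74 and 9 reads (2.70, 1.82 to 4.01). *PRP4* was abundant, with 6586 reads in *dss1(I)* against 2397 in WT (1.24, 1.17 to 1.31). AT3G56590 had 359 and 131 reads (1.23), and *CHUP1* had 3473 and 1493. AT3G03776 had 6 reads in *dss1(I)* against none in WT and stayed under the filter. The only glycine-rich wall gene, AT4G18280, was lower with 83 and 226 reads (−1.65).

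The enzymes that make wall polysaccharides at the plasma membrane differed by close to 2-fold. *CESA1*, *CESA3* and *CESA6* are the subunits of the cellulose synthase complex of the primary wall. *CESA1* had 5748 reads in *dss1(I)* against 2464 in WT (1.00). *CESA3* had 7062 and 2979 (1.03, 0.97 to 1.09), and *CESA6* had 3508 and 1482 (1.03). The 3 ratios agree to within their counting error. *CSLG3*, a cellulose synthase-like gene, was lower with 124 and 261 reads (−1.28). Of the callose synthases, *CALS12*, which lays down callose at wounds and infection sites, had 830 and 330 reads (1.11), and *CALS11* had 389 and 150 (1.15). The CESA and CALS genes are 3825 to 6083 bases long. Among genes of the table outside the wall list, 97.0% of those of 3000 bases or more were higher. The direction of the CESA and CALS genes is thus that of nearly all listed genes of such lengths. *CSLG3*, the lower one, is 2832 bases long, and 69.4% of those from 2000 to 3000 bases were higher. With the extensins left out, the remaining 43 wall genes had 25 higher and 15 lower among 40 that passed (62.5% higher) and a median of 1.03.

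Gene length was set beside these directions, because long genes of the table were more often higher in *dss1(I)*. Among genes of the table outside the wall list, 10.3% of those under 1000 bases were higher, 13.4% of those from 1000 to 1500 bases, 37.0% from 1500 to 2000, 69.4% from 2000 to 3000 and 97.0% of those of 3000 bases or more. The extensins and LRX genes had a median length of 2346 bases, against 1827 for the wall-modifying enzymes and 1703 for the table. Of the extensins of 1000 to 1500 bases 3 of 3 were higher, and of those of 1500 to 2000 bases 5 of 5, against 4 of 5 and 1 of 4 enzymes. From 2000 to 3000 bases it was 5 of 5 extensins and 5 of 6 enzymes, and at 3000 bases or more 4 of 5 extensins, the exception being *PEX4*. Genes among these with few reads in WT could be listed as higher only with a large ratio. Those under a scaled count of 10 in WT could pass the filter only as higher, so the counts carry this selection.

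Each of the 18 extensins and LRX genes was then set against the genes of the table, members left out, whose length was within 10% of its own. There were 187 to 297 such genes for each, 1443 in all, of which 50.9% were higher. The share higher ranged from 14.5% to 95.7% between the extensins, with a mean of 58.5%, beside the 94.4% of the extensins themselves. That 94.4% includes 11 genes with at most 15 reads in WT, which could be listed as higher only with a large ratio. It carries this selection and is no result on direction apart from it. In size, only the 6 abundant genes were compared. AT2G43150 had a ratio above that of 88.2% of the genes of its length, *LRX5* above 88.4%, *EXT3* above 90.7%, *ATEXT4* above 92.8%, *LRX4* above 93.9% and *PEX3* above 94.8%. These are descriptions among genes that had all been called and were not matched on their read counts, and the part of length in the extensin ratios was not tested further.

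**Figure D3:**
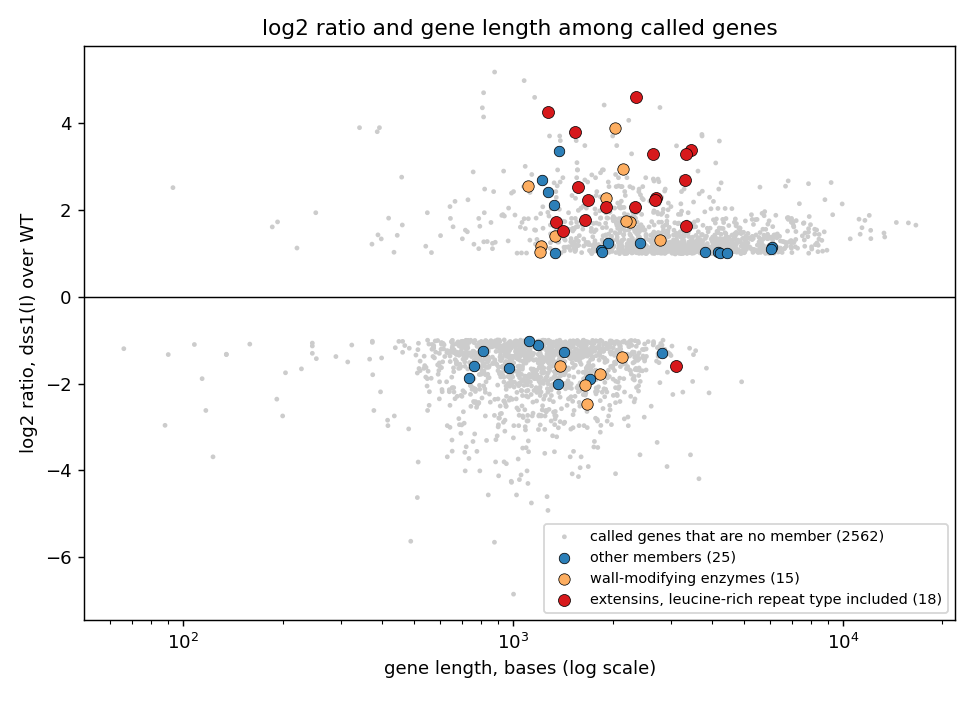
Log2 ratio of *dss1(I)* over WT against gene length in bases (log axis) for the genes of the table that passed the filter, with extensins and LRX genes, wall-modifying enzymes and other members marked. The grey cloud moves from below 0 at short lengths to above 0 at long lengths, and most extensins lie in the upper part of the cloud at their own length. Extensins with few reads in WT could be listed as higher only with a large ratio, so their height in the cloud carries this selection.

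Markers of the tissues of a seedling were read beside the wall genes. Of 17 root hair genes 7 were in the table, all 7 higher in *dss1(I)*, with a median of 2.70. Of these, *LRX1*, *LRX2*, *PRP1* and *PRP3* are also wall members. The other 3 were *RHS13* with 27 reads and none, *PER73* with 28 and 7 reads (1.66), and *RBOHC*, the NADPH oxidase of root hair growth, with 33 and 11 reads (1.30). The summed scaled counts of the 7 were 349.6 in *dss1(I)* and 39.9 in WT. All 7 had at most 11 reads in WT, so they could be listed as higher only with a large ratio. Those under a scaled count of 10 in WT could pass the filter only as higher. Their direction, median and sums carry this selection. The other 10 have no value here. The table held none of 8 genes of secondary wall xylem. The 4 photosynthesis genes in the table were all lower. The most read was *LHCB4.3*, of 1448 bases, with 352 and 715 reads (−1.24), and the other 3 are short plastid genes of 114 to 246 bases. Outside the wall list 10.3% of the genes under 1000 bases and 13.4% of those from 1000 to 1500 bases were higher. The count thus lies near the share for such lengths. The root hair genes in the table were higher, as were most extensins, but the selection of genes with few WT reads acts on both sets. The part of the root hair genes in the extensin result was not tested. Without the 4 members on the root hair list, 38 members were higher and 16 lower. Only *LRX1* and *LRX2* of these are in the extensin and LRX set, and root hair expression of the other extensins was not assessed.

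The promoters were searched for the root hair element, a sequence known from the promoters of Arabidopsis root hair genes, on both strands from 250 bases before to 50 bases after the gene start. It was present in 238 of 27443 promoters of protein-coding genes (0.867%), in 30 of 2680 of the genes of the table (1.12%) and in 3 of the 63 members, *LRX1*, *PRP1* and *PRP3*, all 3 of which are on the root hair list. The matches are shown because they are the only ones among the members. Each lies on the minus strand of TAIR10.1, opposite to its gene, at chr1:4069899-4069914 (*LRX1*), chr1:20504772-20504788 (*PRP1*) and chr3:23182555-23182571 (*PRP3*), which is 93, 129 and 167 bases before the gene start. Capitals mark the last 7 bases of the match.
LRX1: aacttggacGCACGTT
PRP1: atagtgttatGCACGAT
PRP3: taagtgtaatGCACGAT
None of the 14 extensins and none of the 17 wall-modifying enzymes had these letters in the window, which says nothing about binding.

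Wall genes outside the 12 words were grouped by further words. Class III peroxidases, which join extensin tyrosines and lignin precursors, were split: 8 of the 15 listed were higher and 7 lower, with a median of 1.02. The highest were AT4G26010 with 21 and 2 reads (2.69) and *PER43* with 13 and 1 (2.65), and the most read were *PER49* (274 and 557, −1.24) and *PER15* (262 and 585, −1.37). *RRA2*, which adds arabinose to the hydroxyprolines of extensins, was higher with 25 reads in *dss1(I)* against 5 in WT (1.92, 0.69 to 3.85). It was the only gene for such an enzyme in the table, and no prolyl 4-hydroxylase was listed.

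All 4 laccases, oxidases of lignin precursors, were higher, with a median of 1.72. *LAC17* had 59 and 15 reads (1.70) and *LAC11* had 47 and 17 (1.21). *LAC1* had 30 and 7 reads (1.75) and *LAC10* had 15 and 3 (1.81). Both *LAC1* and *LAC10* were under a scaled count of 10 in WT and could pass the filter only as higher. The laccases are 1934 to 2090 bases long. Outside the wall list 37.0% of the genes from 1500 to 2000 bases and 69.4% of those from 2000 to 3000 bases were higher. All 3 beta-galactosidases were higher, led by *BGAL1* with 10235 reads in *dss1(I)* against 2738 in WT (1.68, 1.62 to 1.75). *BGAL1* and *BGAL12* are 3493 and 3171 bases long, and outside the wall list 97.0% of the genes of 3000 bases or more were higher. Their direction is thus that of nearly all listed genes of such lengths. AT5G26622, the third, is 1497 bases long. Chitinases, which cut fungal walls, were lower in 4 of 5, near the share for genes of 1000 to 1500 bases, of which 13.4% were higher. The most read was AT2G43620 with 354 and 1074 reads (−1.82), and AT4G19820, the longest at 2043 bases, was higher with 23 and 2 (2.82). *TBR*, a gene of the trichome birefringence family that acts in secondary wall cellulose, had 1107 and 383 reads (1.31), while its relatives *TBL34* and *TBL36* were lower. *COBL8* was lower with 64 and 113 reads (−1.03). *GUX5* had 17 reads in *dss1(I)* against none in WT, and *PGSIP8*, of the same group, had 23 and 79 (−1.95).

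**Figure D4:**
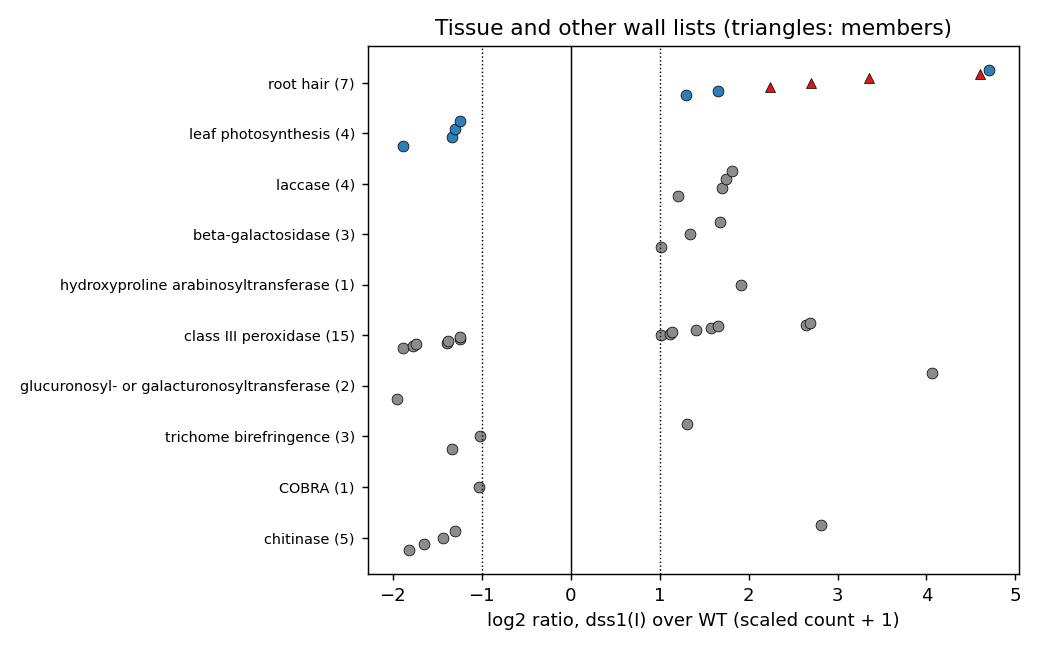
Log2 ratio of *dss1(I)* over WT for the genes of the tissue lists (blue) and of the other wall lists (grey), with the number in the table after each name. Triangles are members on the root hair list. The root hair, laccase and beta-galactosidase genes all lie to the right of 0 and the photosynthesis genes all to the left, while peroxidases lie on both sides. The limits that few WT reads and gene length set on these directions are given in the text.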

How the data were processed

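Poly-A RNA of 1 dss1(I) and 1 WT library was sequenced. Per the submitters' processing notes and the methods, the authors cleaned reads with fastp, mapped them to TAIR10 with HISAT2 and used featureCounts for gene counts. The deposited table holds, for the 2762 genes the authors called, raw counts, a signal that is the count scaled to a common library size with edgeR, and FPKM by the authors with the gene length used for it. Its other columns hold the authors' own fold changes and p-values, which were not used, and 0 further columns per sample were left out.

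Here (Python 3.11.15, pandas 2.3.3, scipy 1.17.1, matplotlib 3.10.9, Biopython 1.88) log2 ratios of scaled counts with a pseudocount of 1 were computed for genes that reached a scaled count of 10 in 1 library or both, and called higher or lower at a 2-fold ratio. edgeR was not run, since 1 library per genotype gives no dispersion. The library totals come from counts, lengths and FPKM, and limit precision through the 95% counting intervals. A count of 0 was bounded by 3 reads. Each gene fell into the first class that its description matched. All extensins were named, and in each other class the members with the most reads and the largest ratios in size, 3 of each, others being added after their values were seen. Coordinates are TAIR10 as deposited, and all 63 members matched a RefSeq TAIR10.1 gene with the same start and end. Alternatives were another pseudocount, filter, threshold and scaling, FPKM, and leaving out groups of genes. The members and lists were chosen with earlier results of these data known. The result of 1 other tissue list is not reported here. The scripts were tested on simulated data.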

Additional observations from a re-analysis of the deposited data

How the results depend on the processing

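No paired analysis was possible because dss1(I) and WT have 1 library each, and for the same reason no replicate could be left out. Every log2 ratio of a passing member kept its sign under the pseudocounts of 0.1 and 5, FPKM and both other scalings. Under FPKM the ratios of AGP18 (0.99), CESA1 (0.99) and CHUP1 (0.98) were under 2-fold, which left 39 members higher, and under a pseudocount of 5 AGP18, CHUP1 and EXLB1 were, which left 40 higher and 15 lower. That pseudocount also put the extensin median, 1.87, under that of the LRX genes, 1.93. The extensins exceeded the enzymes by 0.57 (pseudocount of 5) to 1.30 (without LRX genes). Leaving out root hair genes, genes with repeated windows or CSLC6 was chosen after seeing the data, and gave differences of 0.94, 0.93 and 0.96.

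With no filter 1 extensin was lower and the proline-rich median was 1.97. With a minimum of 50, 10 members were lower, as were 0 LRX, 0 xyloglucan and 3 pectin genes, 7 extensins, 0 pectin genes and 1 endoglucanase were higher, the arabinogalactan median was 1.00, and 100% of the extensins with LRX genes were higher. With a log2 threshold of 2, 21 members were higher and 3 lower. By class, 2 proline-rich, 0 arabinogalactan, 1 xyloglucan, 1 endoglucanase, 0 cellulose synthase and 0 callose genes were then higher, and 0 LRX, 0 glycine-rich, 0 arabinogalactan, 1 expansin, 0 xyloglucan, 2 pectin and 0 cellulose synthase genes lower. At that threshold 72.2% of the extensins with LRX genes were higher, beside 6.84% of the genes of similar length. Among these higher genes, 11 had at most 15 reads in WT and could be listed as higher only with a large ratio. The 72.2% therefore carries this selection, and the genes of similar length were not matched on read counts. For all genes of the table it left 165 higher and 323 lower, against 1261 and 1337.

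Scaling to equal totals over the table adds 0.16 to each log2 ratio. It gave 42 higher and 14 lower members, an arabinogalactan median of 0.031, which changed sign, and a cellulose synthase median of 1.17. The median ratio scaling adds 1.02. Under it 3 members were lower, with 0 LRX, 0 glycine-rich, 0 arabinogalactan, 1 expansin, 0 xyloglucan, 2 pectin and 0 cellulose synthase genes among them, and 289 genes of the table. The medians were 3.20 (LRX), 3.66 (extensins), 3.29 (both together), 2.26 (proline-rich), −0.63 (glycine-rich), 0.90 (arabinogalactan, a change of sign), −0.25 (expansin), 2.27 (xyloglucan), 2.04 (cellulose synthase) and 2.15 (callose). These shifts follow from the added constant. Without members matched only as hydroxyproline-rich, 3 proline-rich genes were higher with a median of 2.70, and without root hair genes 3 LRX and 3 proline-rich genes were higher. Small counts limit the low extensins and the pectin genes.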
